A study of Mus musculus with 11 samples.

Results

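The infarcted left ventricle of mice that lacked Vegfc in myeloid cells was compared with that of control mice, gene by gene, in whole-tissue mRNA sequencing. The comparison used the 6 of 11 libraries whose labels gave myocardial infarction (MI) as the disease state, with 1 mouse per library. The 3 MI Vegfc-deficient libraries (M35, M913 and M900) came from mice of the genotype Vegfc fl/fl ; LysMCre, and the 3 MI control libraries (M38, M006 and M40) from mice of the genotype Vegfc fl/fl. In both groups a coronary artery of the left ventricle had been tied permanently, and infarcted tissue was taken 9 days later. The remaining 5 libraries came from naive hearts of the same genotypes, 2 control and 3 Vegfc-deficient, and entered the fit to share its estimate of the spread. The labels' protocol and the study's methods give the control animals as LysMCre mice, whereas the genotype label gives them without Cre, so the allele carried by the controls was not settled from the labels alone. LysMCre is a Cre recombinase placed into the Lyz2 gene, which is active in macrophages, monocytes and neutrophils, and every other cell type of the heart keeps a working Vegfc gene. The ages of the mice were not given in the sources used here.

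Vegfc encodes a growth factor that acts mainly on the receptor VEGFR3 (gene Flt4) of lymphatic endothelium. After an infarction, dying cardiomyocytes are cleared by phagocytes, fibroblasts lay down collagen and other matrix, and new blood and lymphatic vessels form in the scar. The surviving muscle around the scar draws its energy largely from fatty acid oxidation in mitochondria, so a sample of infarcted ventricle mixes RNA of muscle, scar, vessels and immune cells. Fewer cells of a type and less RNA per cell cannot be told apart in such samples.

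Expression is given below as CPM, a gene's counts per 1000000 counts of its library after scaling by edgeR's TMM method. Values for single libraries are listed in the order M38, M006 and M40 for MI control hearts and M35, M913 and M900 for MI Vegfc-deficient hearts. Groups are called apart when all 3 libraries of a group lay above all 3 of the other, and overlapping otherwise. A log2 fold change is positive where MI Vegfc-deficient hearts were higher. Total counts ranged from 14580756 (M35) to 26782728 (M38) in the 6 libraries, and 3 counts, a floor that covers counting error only, corresponded to 0.101 to 0.176 CPM.

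The targeted gene was checked first. Vegfc (ENSMUSG00000031520, chromosome 8) was at 21.9, 45.5 and 25.8 CPM in MI control hearts and at 29.4, 22.4 and 25.3 CPM in MI Vegfc-deficient hearts. The groups overlapped, and only the control library M006 stood clearly above the rest. The log2 fold change was -0.27 (standard error 0.25) and ran from -0.43 to 0.11 with single MI libraries left out. Lyz2, the lysozyme gene that carries the Cre insertion, was at 4573, 5380.2 and 4538 CPM in the controls and at 1392, 12.4 and 203 CPM in the Vegfc-deficient hearts. No overlap was seen for Lyz2, with the library M35 closest to the controls and M913 lowest. M35 was thus the Vegfc-deficient library with the most Lyz2, and its Vegfc was also above that of the controls M38 and M40. Whether M35 carried fewer Cre alleles or departs from its label could not be settled from the labels, and M35 is the highest or lowest library of many results below. After Benjamini-Hochberg adjustment, the edgeR quasi-likelihood p was 0.824 for Vegfc and 0.657 for Lyz2.

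Some libraries stood apart from the others of their group before any comparison of genotypes. The summed CPM of 30 sarcomere and Z-disc genes, the markers of cardiomyocytes, was 23726, 18014 and 5607 in MI control hearts and 40635, 19798 and 10368 in MI Vegfc-deficient hearts, so that the tissue label held in every library while the muscle content ranged from M40 at the low end to M35 at the high end. The summed CPM of 13 MHC class II and dendritic cell genes was 12452, 2579.7 and 1865 against 1873, 1980.4 and 2740.4, with M38 far above the other 5 libraries. Of the variance of log2 CPM among the 6 libraries, the first principal component held 37.7% and placed M35 at the lowest and M40 at the highest position, and the second held 23.4% and set M38 apart. Medians of the main lists are therefore given with their range over the fits that each left out 1 of the 6 MI libraries.

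**Figure D1:**
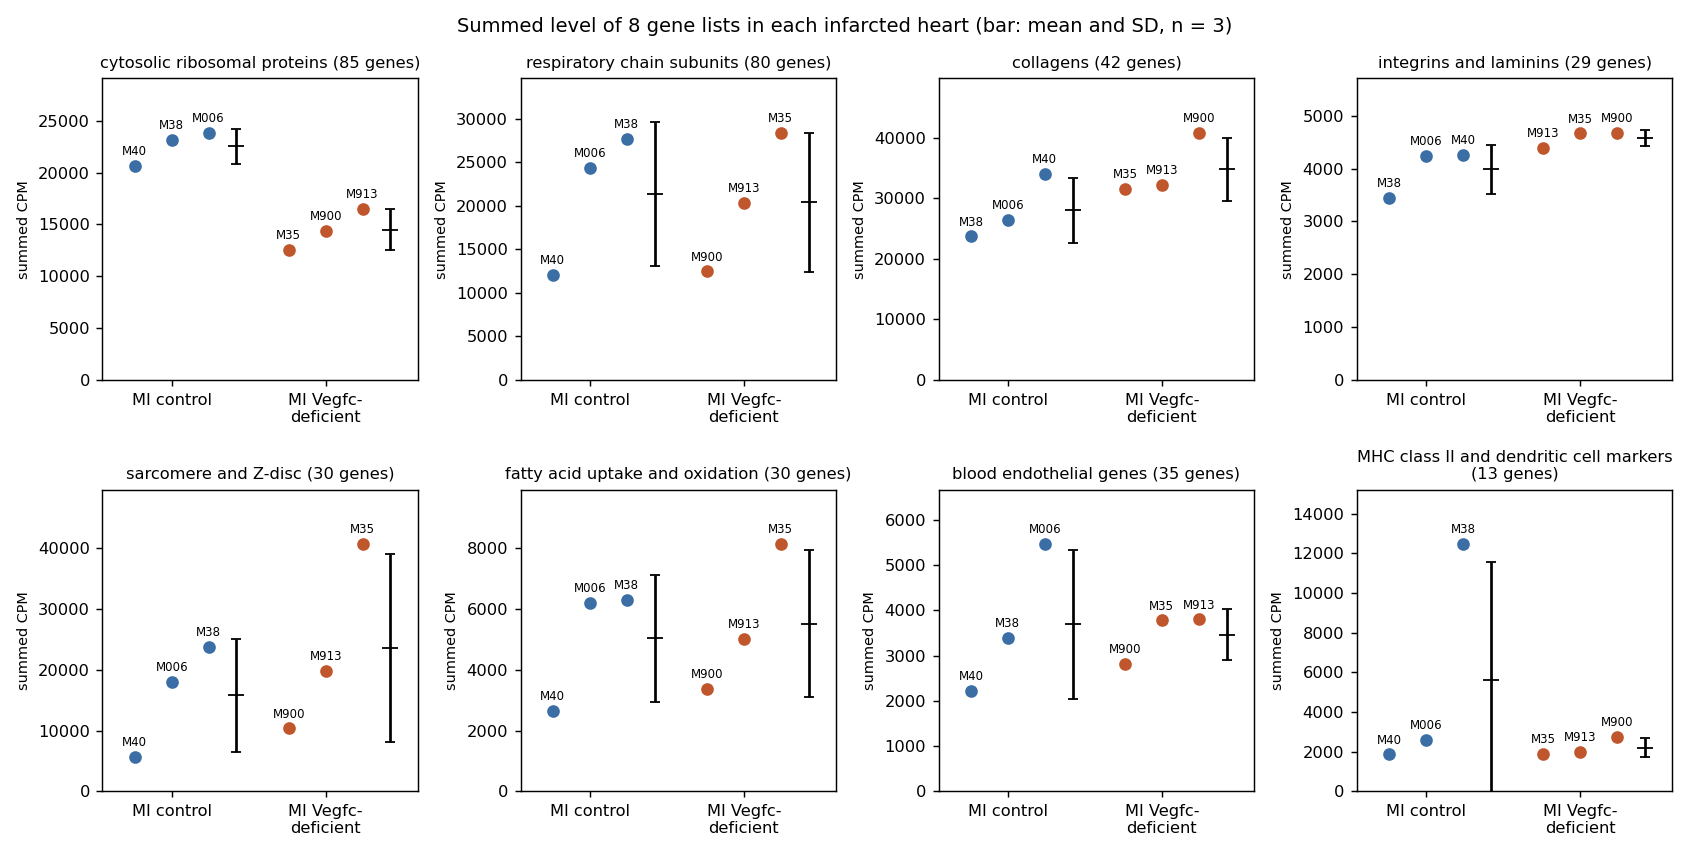
Summed CPM (vertical axes, from 0) of 8 gene lists in each of the 3 MI control libraries (blue) and 3 MI Vegfc-deficient libraries (orange), each point labelled with its mouse and the bar giving mean and SD. The groups are apart for cytosolic ribosomal protein genes and for integrins and laminins, and overlap for the other 6 lists, where M35, M40 and M38 set the spread.

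No gene passed the test. Of 14779 genes tested, 0 reached an adjusted p below 0.05 in the quasi-likelihood test of edgeR (adjusted after Benjamini and Hochberg), while 1173 (7.94%) were below 0.05 before adjustment. Of these, 500 were higher (3.38%) and 673 lower (4.55%) in MI Vegfc-deficient hearts. The groups were apart for 1791 genes (12.1%), with 886 higher (5.99%) and 905 lower (6.12%). The DESeq2 Wald test, run as an alternative, called 51 genes (0.345%) at an adjusted p under 0.05, 14 higher (0.0947%) and 37 lower (0.25%). Positive log2 fold changes were found for 48.9% of genes and negative ones for 51.1%. These shares are the background for the counts of each gene list below, and the p-values measure the spread between these mice only.

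The list of 20 or more genes with the highest share of members whose groups were apart was that of cytosolic ribosomal proteins, the protein parts of the ribosomes that translate nuclear mRNAs. Of 85 tested members, 77 were lower and 8 higher in MI Vegfc-deficient hearts, with a median log2 fold change of -0.49 against a median of -0.0073 over all genes tested. For 48 members (56.5%) the groups were apart, all of them lower, against 6.12% of all genes, and 45 were lower at an unadjusted p under 0.05. Their summed CPM was 23193, 23840.0 and 20624 in the controls and 12577, 16508 and 14414 in the Vegfc-deficient hearts. Every Vegfc-deficient library thus lay below every control library in the sum, with M35 the lowest. With single MI libraries left out, the median lay between -0.56 and -0.36, and between 71 and 79 of the 85 members were lower. All 32 genes of the small subunit were lower, with a median of -0.55, and 43 of 51 genes of the large subunit, with a median of -0.45. None of the 85 passed the adjusted threshold in edgeR, and the DESeq2 Wald test called 15 of them.

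Rps14, a protein of the small subunit, was at 1267, 1013 and 913.4 CPM in the controls and 379.6, 628 and 487 CPM in the Vegfc-deficient hearts. Rpl41, which encodes the shortest protein of the large subunit, was at 322, 286 and 309.9 CPM and 129, 216 and 150.2 CPM. Rps28 was at 46.8, 54.8 and 49.97 CPM and 25.2, 27.3 and 21.4 CPM. In each of the 3 genes the lowest control library was well above the highest Vegfc-deficient one. The log2 fold changes were -1.10 (standard error 0.23) for Rps14, -0.89 (standard error 0.19) for Rpl41 and -1.04 (standard error 0.23) for Rps28, each with an adjusted p of 0.584 (edgeR quasi-likelihood, Benjamini-Hochberg). The lowest log2 fold change among members was that of Rps19 (-2.27 (standard error 0.54)), at 149.6, 218 and 275 CPM against 54.7, 9.98 and 68.98 CPM, a gene named here after its values were seen.

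Ribosomal protein genes have many near-identical processed pseudogenes, and reads from short exons can be shared with them, so single members are less certain than the list. The 62 members with a pseudogene named after them in the annotation had a median log2 fold change of -0.48, and the 23 without one had a median of -0.55. Pseudogenes under other names were not counted, so the 23 need not be free of pseudogenes, and the sharing of reads was not tested. The retrogenes Rps27rt and Rpl37rt and the pseudogene Gm11478 were also among the genes with the smallest p-values. Rps27rt was at 6.32, 8.34 and 5.61 CPM against 1.29, 2.53 and 2.64 CPM, and its reads cannot be fully told apart from those of its parent gene.

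Most mRNAs of ribosomal proteins begin with a run of pyrimidines, the 5′ terminal oligopyrimidine tract, through which their translation is controlled together. In the 30 bases before to 50 bases after the start given by RefSeq (GRCm38.p6), the runs CTTTTC, or else CTTTCC, or else CTCTTT, read on the transcribed strand only and counted once where they overlap, were present in 36 of 64 ribosomal protein genes with an entry (56.3%). They were present in 1064 of 11585 tested genes with an entry (9.18%), in 7 of 69 mitochondrial ribosomal protein genes (10.1%) and in 1 of 24 sarcomere genes (4.17%). Most genes were lower with or without the letters, 31 of the 36 with them and 27 of the 28 without them in this window, and the groups were apart for 52.8% and 57.1%. The 36 genes with them had a median log2 fold change of -0.52 and the 28 without them in this window -0.44. The stretch from 10 bases before the start is printed for 4 genes, with the matched letters in capitals. These are the genes of smallest p whose groups were apart and whose letters fell within it, with chromosomes 8 and 18 left out. They show where the letters lie in examples picked for having them.
Rps10 (chr17:27635225-27635254, minus strand): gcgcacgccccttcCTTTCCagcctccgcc
Rpl13a (chr7:45128726-45128755, minus strand): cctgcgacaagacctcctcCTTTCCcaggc
Rps9 (chr7:3704031-3704060, plus strand): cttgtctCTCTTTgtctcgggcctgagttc
Rpl18 (chr7:45718061-45718090, plus strand): ctcgcaggccgCTCTTTCCccgcccactcc
In these 4 genes the log2 fold change was -0.84 for Rps10, -0.80 for Rpl13a, -0.68 for Rps9 and -0.58 for Rpl18, and a match of letters is a description, not a site shown to act.

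**Figure D2:**
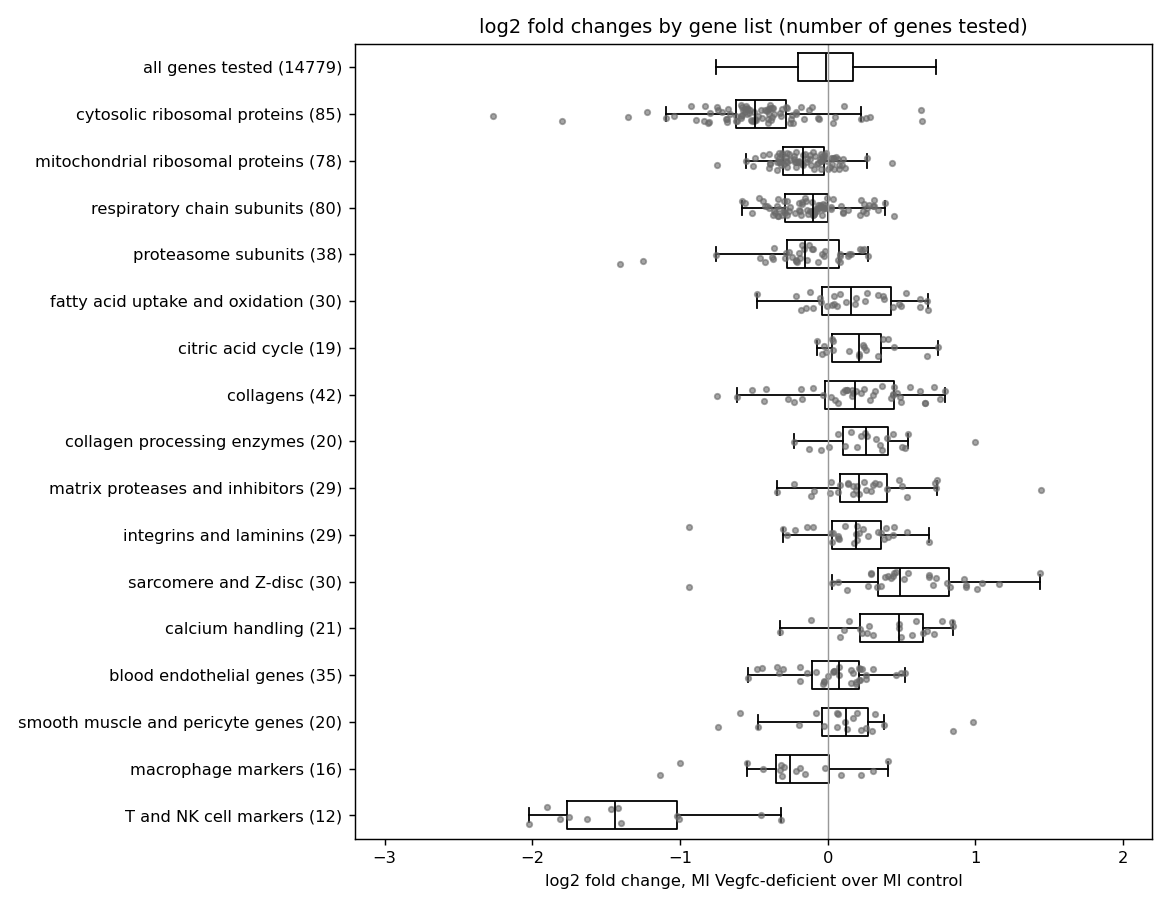
Log2 fold change of MI Vegfc-deficient over MI control hearts (horizontal axis) for all 14779 genes tested and for the tested members of 16 gene lists, each grey point a gene and each box the quartiles and median, with whiskers to 1.5 times the interquartile range. Cytosolic ribosomal protein genes lie mostly below 0, matrix lists slightly above 0, and sarcomere genes above 0 with a median of 0.49.

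Mitochondrial ribosomal protein genes, which serve translation inside mitochondria, were mostly lower as well, with a median closer to 0 than that of the cytosolic list. Their member Mrps12, a protein of the mitochondrial small ribosomal subunit that lies on chromosome 7 from 28739641 to 28741820 of GRCm38, had the smallest p-value of all genes. It was at 29.99, 32.03 and 28.9 CPM in the controls and at 18.5, 18.9 and 16.8 CPM in the Vegfc-deficient hearts. Its libraries formed a tight group on either side, with no overlap. The log2 fold change was -0.75 (standard error 0.10) with an adjusted p of 0.374 (edgeR quasi-likelihood, Benjamini-Hochberg), and the DESeq2 Wald test gave an adjusted p of 2e-05. Eif3k, a subunit of translation initiation factor eIF3 that belonged to none of the lists, was at 274, 305 and 282 CPM against 148, 168 and 170.0 CPM, again with no overlap, for a log2 fold change of -0.83 (standard error 0.14). Of 78 tested mitochondrial ribosomal protein genes, 62 were lower and 16 higher, with a median of -0.17. For 9 of them (11.5%) the groups were apart, all lower, against 6.12% of all genes in that direction and 12.1% in either. The list's median transcript length was 1866.5 bases. In the class of 2536 genes up to 2000 bases, described below, 72.0% were lower. Groups were apart in either direction for 13.6% of that class, and the list's share in either direction did not exceed it. The share of that class apart in the lower direction was not counted. Among the 9, Mrpl24 was at 59.4, 69.1 and 62.7 CPM against 48.1, 54.2 and 50.1 CPM. Mrpl20 was at 114, 91.6 and 88.1 CPM against 69.5, 80.3 and 67.6 CPM. When each MI library was left out in turn, the list's median log2 fold change ran from -0.29 without M40 to -0.0011 without M38.

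Transcript length, here that of a gene's longest annotated transcript, moved with these differences. Among 701 tested genes of up to 1000 bases, 82.2% were lower in MI Vegfc-deficient hearts, with a median log2 fold change of -0.32. The share was 72.0% of 2536 genes up to 2000 bases, 52.9% of 6055 genes up to 4000 bases, 36.8% of 4652 genes up to 8000 bases and 27.7% of 827 longer genes, whose median was 0.16. Ribosomal protein genes were short, with a median transcript length of 1094 bases. The 605 other genes of up to 1000 bases, outside the ribosomal, respiratory chain and proteasome lists, had a median of -0.32, and the groups were apart in the lower direction for 110 of them (18.2%). With the trend on length removed from each library, the median of the ribosomal list was -0.25, that of the mitochondrial ribosomal list -0.023 and that of the respiratory chain 0.15. The part of RNA quality in the relation to length was not tested.

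**Figure D3:**
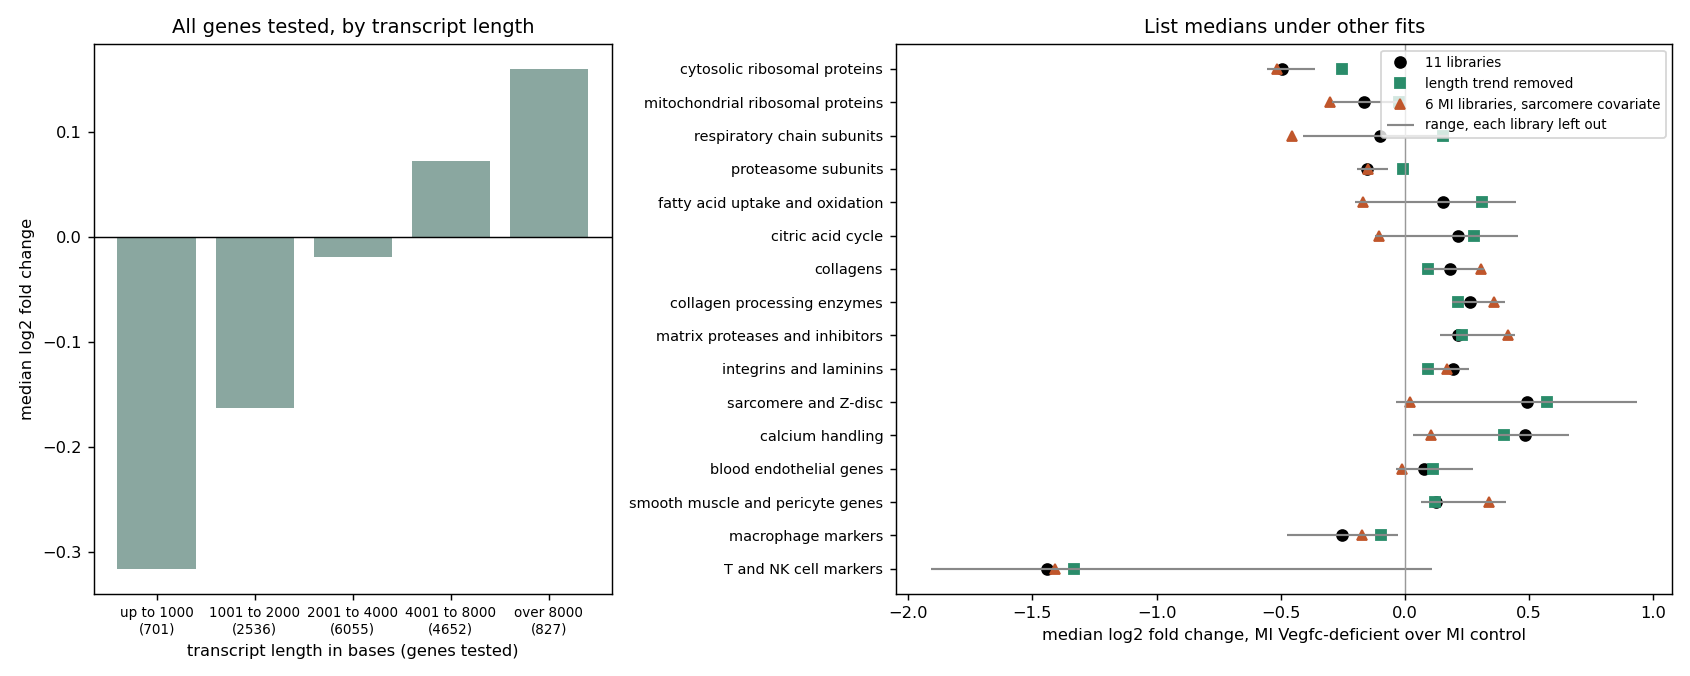
Left, median log2 fold change of all genes tested in 5 classes of transcript length, with the number of genes in each class. Right, the median of each of 16 gene lists with all 11 libraries (circles), with the length trend removed (squares) and in the 6 MI libraries with the sarcomere level as a covariate (triangles), the line giving the range when each library was left out. The ribosomal median stays below 0 in every fit shown, and the sarcomere median moves to 0.021 with its own level as covariate.

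Matrix genes were mostly higher in MI Vegfc-deficient hearts, by small sizes. Of 42 tested collagen genes, 31 were higher and 11 lower, with a median log2 fold change of 0.18. This median ran from 0.076 without M38 to 0.32 without M40, and was 0.092 with the length trend removed. The groups were apart for 5 collagen genes (11.9%), all higher, against 5.99% of all genes, namely Col6a1, Col6a2, Col15a1 and, outside the rule for named genes and chosen after their values were seen, Col4a2 and Col5a3. Col6a1 and Col6a2 encode chains of collagen VI, the network-forming collagen of the pericellular matrix. Col6a1 was at 321, 457 and 449 CPM in the controls and 747, 536 and 653 CPM in the Vegfc-deficient hearts. Col6a2 was at 249, 301 and 315 CPM and 559, 395 and 413 CPM. Both were lowest in the control M38 and highest in the Vegfc-deficient M35, without overlap, and their log2 fold changes were 0.66 (standard error 0.20) and 0.66 (standard error 0.19). Col15a1, a basement membrane collagen, was at 158, 243 and 264 CPM and 292, 350.4 and 382 CPM, and here the gap between the control M40 and the Vegfc-deficient M35 was narrow. The chains of the fibrillar scar collagens overlapped between groups, with Col1a1 at 2518, 2027 and 3601 CPM against 2864, 3586 and 5047 CPM and Col3a1 at 10127, 12498 and 14743 CPM against 15225, 13481 and 16815 CPM.

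Enzymes that build and process collagen leaned the same way, with 17 of 20 higher and a median of 0.26. No overlap was found for P4ha2, Pcolce, Adamts3 and, named after its values were seen, P4ha1, all higher (20% of the list, against 5.99% of all genes). P4ha2, a subunit of the prolyl 4-hydroxylase that stabilises the collagen triple helix, was at 39.97, 40.9 and 42.8 CPM in the controls and 66.5, 52.6 and 61.2 CPM in the Vegfc-deficient hearts. Its controls lay within a few CPM of each other and below all Vegfc-deficient libraries. Pcolce, an enhancer of the removal of the procollagen C-propeptide, was at 248, 273 and 316 CPM and 392, 432 and 381 CPM, also without overlap. Log2 fold changes were 0.54 (standard error 0.13) for P4ha2 and 0.53 (standard error 0.15) for Pcolce. When each MI library was left out in turn, at least 15 of the 20 members stayed higher, and the list's median ran from 0.19 to 0.40.

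Of 29 matrix proteases and their inhibitors, 25 were higher and 4 lower, with a median of 0.21 (from 0.14 without M900 to 0.44 without M40). Timp3, a matrix-bound inhibitor of metalloproteinases on chromosome 10 from 86300372 to 86349506, was at 159, 204 and 239 CPM in the controls and at 318, 345 and 332 CPM in the Vegfc-deficient hearts. The Vegfc-deficient libraries lay close together and above the highest control, M40. The stromelysin gene Mmp3 was at 9.77, 15.9 and 13.3 CPM against 22.2, 17.8 and 24.9 CPM and also had no overlap, as did Mmp19, named after its values were seen. Genes whose groups were apart made up 10.3% of the list, all higher, against 5.99% of all genes. The gelatinase gene Mmp2 overlapped, with M913 at the level of the controls (594 CPM in M006 and 592 CPM in M913). The log2 fold changes were 0.73 (standard error 0.17) for Timp3 and 0.74 (standard error 0.27) for Mmp3, with an adjusted p of 0.584 for both (edgeR quasi-likelihood, Benjamini-Hochberg).

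Among 29 matricellular and growth factor binding genes, 19 were higher and 10 lower, with a median of only 0.051 (from -0.022 without M900 to 0.20 without M35). Igfbp5, which encodes a binding protein of insulin-like growth factors and lies on chromosome 1 from 72857932 to 72874884, had the second smallest p among higher genes. It was at 76.2, 96.7 and 84.4 CPM in the controls and 235, 151 and 162 CPM in the Vegfc-deficient hearts, where M35 was the highest. Without M35 its log2 fold change was 0.86, the lowest value when a library was left out, against 1.09 (standard error 0.18) with all libraries, and the adjusted p was 0.405 (edgeR quasi-likelihood, Benjamini-Hochberg). Comp, a thrombospondin of cartilage and scar, was at 192, 281 and 296 CPM against 339, 542 and 449.6 CPM without overlap, as was Thbs3, a related gene named after its values were seen. Genes without overlap made up 10.3% of this list, all higher, against 5.99% of all genes. Thbs4 pointed the other way at 219, 171 and 112 CPM against 152, 99.4 and 58.03 CPM, with overlap.

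The markers of activated fibroblasts themselves were balanced. Of 24 tested, 14 were higher and 10 lower, with a median of 0.013. Postn, the marker of the activated fibroblast, was at 7489, 8574 and 9464 CPM in the controls and 6711, 8643 and 10307 CPM in the Vegfc-deficient hearts, and Acta2, the smooth muscle actin of myofibroblasts, at 640.2, 366 and 1073 CPM and 286, 907 and 983 CPM. Neither gene ordered the libraries by genotype, and M35 was the lowest of the 6 for both. Fn1, fibronectin, was at 2838, 2492 and 4591 CPM and 2284, 4178 and 5267 CPM. The log2 fold changes of 0.0076 for Postn, 0.066 for Acta2 and 0.24 for Fn1 changed sign when single libraries were left out. Of 32 TGF-beta and BMP signaling genes, Smad3, which carries the TGF-beta signal to the nucleus, was at 27.1, 29.4 and 30.5 CPM against 40.5, 35.2 and 44.2 CPM without overlap (log2 fold change 0.46 (standard error 0.12)). The list as a whole had a median of 0.032, and the groups were also apart for Acvr1 and, named after their values were seen, Smad2 (higher) and Id2 (lower). The share of the list that was apart was 12.5%, near the 12.1% of all genes.

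Integrins and laminins, the receptors and basement membrane proteins that tie cells to matrix, were the only list of 20 or more genes whose summed CPM was higher in every Vegfc-deficient library than in every control library, at 3449, 4241 and 4266 CPM in the controls and 4666, 4396 and 4678 CPM in the Vegfc-deficient hearts. Of 29 members, 23 were higher, with a median of 0.19, and the groups were apart for Lamc1 alone (3.45%, against 5.99% of all genes). The median was 0.070 without M38, 0.26 without M006 and 0.094 with the length trend removed. Lamc1, the gamma chain shared by most laminins, was at 216, 384 and 284 CPM in the controls and 584, 424 and 416 CPM in the Vegfc-deficient hearts, with M006 the control nearest to them. Lama4, a laminin chain of vessel and muscle basement membrane, was at 150.3, 250.1 and 165 CPM and 261, 237 and 272 CPM and overlapped through M006. On the log2 scale the differences were 0.69 (standard error 0.21) for Lamc1 and 0.45 (standard error 0.19) for Lama4, with adjusted p-values of 0.584 and 0.615 (edgeR quasi-likelihood, Benjamini-Hochberg).

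**Figure D4:**
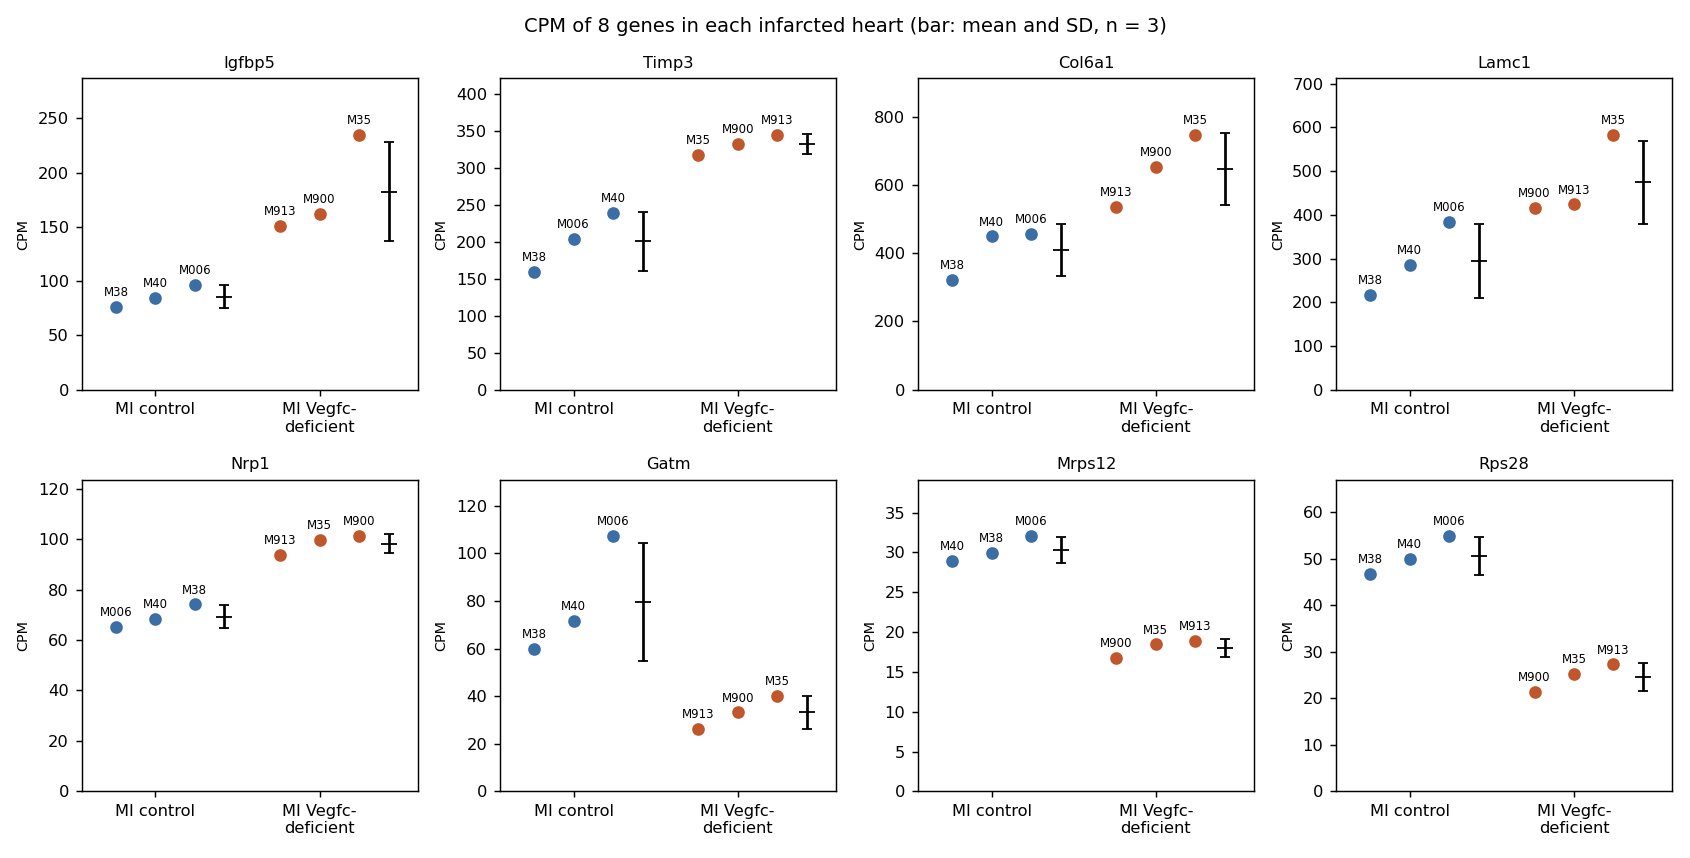
CPM (vertical axes, from 0) of 8 genes in each MI control library (blue) and each MI Vegfc-deficient library (orange), labelled with the mouse, with mean and SD. Igfbp5, Timp3, Col6a1, Lamc1 and Nrp1 are higher and Gatm, Mrps12 and Rps28 lower in all 3 Vegfc-deficient libraries, and none of the 8 passed the adjusted threshold.

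Genes of fatty acid metabolism ordered the extreme libraries as the muscle genes did and did not separate the genotypes. The summed CPM of 30 genes of fatty acid uptake and oxidation was 6308, 6193 and 2638 in MI control hearts and 8137, 5029 and 3373 in MI Vegfc-deficient hearts. As for the sarcomere genes, M35 was the highest and M40 the lowest library. Of the 30 genes, 21 were higher and 9 lower, with a median log2 fold change of 0.16 (from -0.20 without M35 to 0.45 without M38), and the groups overlapped for all 30. Hadha, the alpha subunit of the mitochondrial trifunctional protein, had the smallest p of the list, at 227, 196 and 147 CPM against 449, 253 and 206 CPM. Cpt1b, which loads fatty acids for entry into mitochondria, was at 101, 58.2 and 15.1 CPM against 162, 73.8 and 33.8 CPM. Its log2 fold change was 0.62 (standard error 0.63) with all libraries and -0.020 with the sarcomere level as a covariate in the 6 MI libraries. Ppara and Ppargc1a, the regulators of this pathway, were at 1.08, 0.538 and 0.367 CPM against 2.47, 0.538 and 0.461 CPM and at 8.62, 5.06 and 1.87 CPM against 13.8, 6.05 and 3.86 CPM, both led by M35. The median of the whole list was -0.17 with that covariate.

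The citric acid cycle had 15 of 19 genes higher, a median of 0.22 and overlapping groups for all 19. Without M35 the median was -0.12 with 4 genes higher, and without M900 it was 0.45 with all 19 higher. Ogdh, the first subunit of 2-oxoglutarate dehydrogenase, ranged from 107 CPM in M40 to 432 CPM in M35. With the sarcomere level as a covariate the list's median was -0.10. Of 80 nuclear genes for respiratory chain subunits, 60 were lower and 20 higher, with a median of -0.10. The summed CPM of these genes was 27689, 24319 and 12057 against 28391, 20304 and 12472, and the median ran from -0.41 without M35 to 0.18 without M900. With the sarcomere level as a covariate in the 6 MI libraries, 78 of the 80 were lower and 2 higher, with a median of -0.45. With the length trend removed, the median was 0.15. Groups did not overlap for Cox8a, Cox6a1 and, named after its values were seen, Atp5g2, all lower (3.75% of the list, against 6.12% of all genes). Cox8a, a subunit of cytochrome c oxidase, was at 209, 194 and 182 CPM in the controls and 137, 172 and 116 CPM in the Vegfc-deficient hearts, and Cox6a1 at 209, 198 and 196 CPM and 137, 183 and 156 CPM. The log2 fold change of Cox6a1 was -0.34 and was 0.032 once the length trend was removed. The 13 protein genes that mitochondria encode themselves were listed at 0 counts throughout and were not analysed here.

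Gatm stood out among metabolic genes. It encodes the enzyme of the first step of creatine synthesis, and was at 59.9, 107 and 71.5 CPM in MI control hearts and 40.3, 26.2 and 33.2 CPM in MI Vegfc-deficient hearts. Its groups did not overlap, with M006 the highest control and M913 the lowest Vegfc-deficient library. Gatm alone was apart among the 7 genes of creatine synthesis and creatine kinases (14.3%, against 6.12% of all genes in the lower direction). The log2 fold change was -1.26 (standard error 0.31) with an adjusted p of 0.584 (edgeR quasi-likelihood, Benjamini-Hochberg), and 0.0437 by the DESeq2 Wald test. Gamt, which encodes the enzyme of the second step, was at 16.4, 17.2 and 20.6 CPM and 12.8, 17.8 and 15.9 CPM and overlapped. Slc6a8, the creatine transporter, overlapped as well, at 109.8, 79.5 and 118 CPM against 109, 126 and 112 CPM.

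Of 37 genes of glycolysis, glycogen and pyruvate entry, 23 were higher and 14 lower, with a median of 0.10 (from -0.057 without M35 to 0.33 without M38). A pair of them (5.41%, against 12.1% of all genes) had groups that were apart, in opposite directions. Gys1, the glycogen synthase of muscle, was at 19.3, 15.9 and 19.2 CPM in the controls and 38.5, 22.2 and 20.3 CPM in the Vegfc-deficient hearts, of which M35 was far above the other two. Pgk1, a glycolytic kinase, was at 22.8, 17.5 and 21.5 CPM and 14.4, 16.9 and 15.5 CPM. Their log2 fold changes were 0.57 (standard error 0.22) and -0.40 (standard error 0.16). Among 23 antioxidant genes the groups were apart only for Txn1, thioredoxin, at 289, 227 and 217 CPM against 168, 203 and 193 CPM (log2 fold change -0.38 (standard error 0.16)). This was 4.35% of the list, against 6.12% of all genes in the lower direction. Oxidation of ketones and branched-chain amino acids (18 genes, median 0.16) and 17 metabolic regulators (median 0.28) had no gene whose groups were apart, and both medians were below 0 without M35 (-0.080 and -0.096).

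Cardiomyocyte genes were higher on average and mostly overlapped between groups. Of 30 sarcomere and Z-disc genes, 29 were higher and 1 lower, with a median log2 fold change of 0.49, and the groups were apart for none. The median ran from -0.037 to 0.94 when each MI library was left out, the lowest value without M35 and the highest without M38. Myh6, the alpha myosin heavy chain of the adult mouse ventricle, was at 949, 535 and 139.5 CPM in the controls and 1858, 897 and 324 CPM in the Vegfc-deficient hearts. Ttn, titin, was at 319, 275 and 87.8 CPM and 1272, 338 and 240.2 CPM. In both genes M40 was the lowest of the 6 libraries and M35 the highest, while the other 4 were mixed. The natriuretic peptide genes Nppa and Nppb, induced by wall stress, were at 3283, 1406 and 1423 CPM against 5811, 2176 and 1988 CPM and 397, 296 and 209.8 CPM against 591, 388 and 275 CPM, again with M35 at the top. Fetal and stress genes had 15 of 18 members higher and a median of 0.60, and ion channels 22 of 26 and 0.30, with overlap for every member of both lists. Without M35 these medians were 0.13 and -0.11, the latter with 10 of 26 genes higher.

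Over the 7 lists of cardiomyocyte genes, the groups were apart in the higher direction for 10 of 153 genes (6.54%), near the 5.99% of all genes. In the calcium handling list, 19 of 21 were higher with a median of 0.48 (from 0.033 without M35 to 0.66 without M900, and 0.11 with the sarcomere covariate), and the groups were apart for Slc8a1 and, named after their values were seen, Casq1, Asph and Itpr1 (higher) and Fkbp1b (lower). These made up 23.8% of the list, against 12.1% of all genes in either direction. Slc8a1, the sodium-calcium exchanger, was at 12.6, 8.99 and 13.9 CPM in the controls and 28.03, 14.95 and 15.8 CPM in the Vegfc-deficient hearts, a narrow gap apart from M35. Atp2a2, the calcium pump of the sarcoplasmic reticulum, overlapped at 1108, 707 and 243 CPM against 1856, 745 and 515 CPM. Among cardiac transcription factors, Gata4 was at 29.7, 37.6 and 35.04 CPM and 65.1, 42.8 and 42.7 CPM and Tead1, which acts with YAP, at 31.2, 32.1 and 40.2 CPM and 50.1, 43.1 and 49.2 CPM, both without overlap. Mef2d, named after its values were seen, was also apart. Of the 14 factors tested, 21.4% were apart, all higher, against 5.99% of all genes. On the log2 scale the differences were 0.72 (standard error 0.26) for Slc8a1, 0.56 (standard error 0.19) for Gata4 and 0.46 (standard error 0.13) for Tead1. Adjusted p-values were 0.584 for the 3 genes (edgeR quasi-likelihood, Benjamini-Hochberg).

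At the intercalated disc, where cardiomyocytes are joined, 25 of 29 genes were higher, with a median of 0.40. Without M35, 14 of the 29 were higher with a median of -0.0028, and the median was 0.095 with the sarcomere covariate. Cdh2, N-cadherin, was at 33.8, 32.2 and 44.2 CPM in the controls and 70.05, 43.4 and 62.4 CPM in the Vegfc-deficient hearts, and Vcl, vinculin, at 20.4, 21.05 and 38.2 CPM and 36.6, 40.96 and 61.7 CPM. Both overlapped only through the control M40. Tjp1, a junction scaffold, was at 47.5, 63.6 and 47.5 CPM and 94.4, 59.9 and 76.5 CPM. The groups were apart only for Dag1, dystroglycan, named after its values were seen (higher, 3.45% of the list, against 5.99% of all genes). Of 19 adrenergic and renin-angiotensin genes, Adra1a, the alpha-1A adrenergic receptor, was at 3.18, 2.85 and 1.98 CPM and 4.23, 4.18 and 4.03 CPM without overlap. Pde4d, named after its values were seen, was also higher without overlap. Npr3, the clearance receptor of natriuretic peptides, was lower without overlap, at 38.6, 57.9 and 36.9 CPM against 32.6, 33.05 and 33.9 CPM. Genes whose groups were apart made up 15.8% of this list, against 12.1% of all genes.

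Vascular genes differed little. Of 12 genes of VEGF ligands, receptors and their processing, 9 were higher and 3 lower, with a median log2 fold change of 0.24 (from 0.050 without M40 to 0.41 without M006), and the groups were apart for Nrp1 and Adamts3 (16.7% of the list, both higher, against 5.99% of all genes). Nrp1, a co-receptor for VEGF and semaphorins, was at 74.1, 65.1 and 68.4 CPM in the controls and 99.5, 93.8 and 101 CPM in the Vegfc-deficient hearts, with tight groups on either side. Adamts3, the protease that cuts pro-VEGFC to its active form and also trims procollagen, was at 1.69, 1.29 and 1.98 CPM and 4.17, 2.48 and 3.35 CPM. The log2 fold changes were 0.50 (standard error 0.19) for Nrp1 and 0.81 to 1.18 for Adamts3 over the fits that left out a library, with adjusted p-values of 0.585 and 0.610 (edgeR quasi-likelihood, Benjamini-Hochberg). Ccbe1, the cofactor of that cleavage, overlapped at 13.2, 16.6 and 4.37 CPM against 20.9, 10.9 and 13.8 CPM.

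The ligands other than Vegfc overlapped. Vegfa was at 39.1, 43.98 and 39.1 CPM in the controls and 60.4, 49.7 and 35.3 CPM in the Vegfc-deficient hearts. Vegfd, the other ligand of VEGFR3, was at 26.3, 61.9 and 46.5 CPM and 35.3, 38.8 and 40.8 CPM, with controls on both sides of the Vegfc-deficient libraries. Vegfb and Pgf, ligands of VEGFR1, had log2 fold changes of -0.038 (standard error 0.30) and 0.087 (standard error 0.24). The receptor Flt4 was at 16.03, 43.98 and 21.02 CPM and 40.4, 19.96 and 34.2 CPM, with M006 and M35 the highest of their groups. Kdr (VEGFR2) was at 56.4, 109 and 39.8 CPM and 114, 68.2 and 62.5 CPM and Flt1 (VEGFR1) at 50.04, 71.4 and 38.7 CPM and 78.7, 64.98 and 52.9 CPM. Nrp2, a co-receptor in lymphatic endothelium, differed by a log2 fold change of 0.16 (standard error 0.18). The values of Vegfc, Vegfb, Vegfd, Pgf, Kdr and Flt4 changed sign when single libraries were left out.

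Blood endothelial genes (35 tested, 22 higher, median 0.077) and lymphatic endothelial genes (10 tested, 7 higher, median 0.12) held no gene whose groups were apart. The same was true of smooth muscle and pericyte genes (20 tested, 14 higher, median 0.13) and Notch genes (17 tested, 13 higher, median 0.16). The blood endothelial median was -0.036 without M40. With single MI libraries left out, the lymphatic endothelial median lay between -0.067 and 0.43, and between 3 and 10 of the 10 genes were higher. Pecam1, the pan-endothelial adhesion molecule, was at 154, 269 and 133 CPM in the controls and 286, 267 and 248 CPM in the Vegfc-deficient hearts, and Cdh5, VE-cadherin, at 91.7, 139 and 85.5 CPM and 152, 156 and 138 CPM. In both genes the Vegfc-deficient libraries were close together while the control M006 stood above M38 and M40. Lyve1, a marker of lymphatic endothelium and of some resident macrophages, was at 25.5, 49.8 and 18.5 CPM against 42.5, 22.4 and 23.3 CPM. Among 25 genes of endothelin, nitric oxide and sphingosine phosphate signaling, S1pr3, a receptor of sphingosine 1-phosphate, was at 15.1, 16.5 and 12.3 CPM and 29.03, 19.1 and 25.6 CPM. Ramp1, a subunit of the CGRP receptor, was at 18.02, 18.8 and 13.1 CPM and 7.23, 11.6 and 8.18 CPM. Each was without overlap, in opposite directions, and together they made up 8% of the list, against 12.1% of all genes.

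Genes of protein folding and turnover gave a mixed picture. Of 38 proteasome subunits, 27 were lower and 11 higher, with a median of -0.15 that was -0.0082 with the length trend removed. Without overlap were 7 lower and 3 higher members, together 26.3% of the list, against 12.1% of all genes. The 7 lower members were subunits of the catalytic core, among them Psmb1 at 367, 384 and 303 CPM against 239, 272 and 257 CPM and the immunoproteasome subunit Psmb8 at 358, 108 and 96.7 CPM against 56.3, 94.97 and 85.5 CPM. Psmb8 was by far the highest in M38, and without M38 its log2 fold change of -1.25 was -0.35. The 3 higher members, named after their values were seen, were Psmc1, Psmc2 and Psmc4, ATPases of the cap. In the endoplasmic reticulum, the calcium-binding chaperone Calr was at 660.0, 553 and 586 CPM and 685, 777 and 983 CPM without overlap, as were Hspa5 and Canx (higher), while Hspa1a, a heat shock protein of the cytosol, was lower. The last 3 were named after their values were seen. Members whose groups were apart made up 13.3% of the 30 chaperone and endoplasmic reticulum stress genes, near the 12.1% of all genes. Among hypoxia and iron genes the groups were apart for Ankrd37, a target of hypoxia-inducible factor, at 10.1, 23.2 and 10.5 CPM against 6.17, 8.66 and 6.08 CPM, and for Trf (higher), named after its values were seen. The share of the hypoxia and iron list that was apart was 10.5%, below the 12.1% of all genes. Of 30 cell cycle genes, 1 was apart (3.33%, lower, against 6.12% of all genes). This was Tyms, thymidylate synthase, at 43.9, 41.5 and 48.1 CPM against 22.4, 37.9 and 40.5 CPM.

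The genes with the smallest p-values outside these lists included Zfhx4, a zinc finger and homeobox transcription factor, at 2.77, 3.07 and 2.13 CPM in the controls and 8.76, 6.63 and 7.04 CPM in the Vegfc-deficient hearts. The lowest Vegfc-deficient library was far above the highest control. Its log2 fold change was 1.49 (standard error 0.24), with an adjusted p of 0.405 (edgeR quasi-likelihood, Benjamini-Hochberg) and 0.0001 by the DESeq2 Wald test. Gstm2, a glutathione transferase, was at 35.5, 39.7 and 41.2 CPM and 60.8, 55.6 and 57.3 CPM, and Prpf8, the core protein of the spliceosome, at 105, 114 and 121 CPM and 180.1, 155 and 187 CPM. Prkca (protein kinase C alpha), Dnmbp, Ints4 and Fto were also higher, with log2 fold changes of 0.57, 0.75, 0.43 and 0.50. Among lower genes, Ifi27l2a, an interferon-induced gene, was at 366, 283 and 333 CPM and 136, 167 and 171 CPM, and Ctse, the endosomal protease cathepsin E, at 24.3, 18.5 and 26.7 CPM and 3.58, 0.994 and 6.499 CPM. The controls of both genes formed a close group well above the Vegfc-deficient libraries. Log2 fold changes were -1.05 (standard error 0.20) for Ifi27l2a and -2.65 (standard error 0.54) for Ctse. Gfer, a sulfhydryl oxidase of the mitochondrial intermembrane space, and Tmem128 had log2 fold changes of -0.62 and -0.52.

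Markers of other cell types were examined because they could move with the genes above. Macrophage markers were lower for 12 of 16 genes with a median of -0.26, and their summed CPM was 7688, 4259.5 and 6675 in the controls and 2852, 6462 and 6022 in the Vegfc-deficient hearts, with M35 the lowest. Mrc1, named after its values were seen, was the only one whose groups were apart, and it was higher (6.25% of the list, against 5.99% of all genes). All 12 T and NK cell genes were lower, with a median of -1.44 that became 0.11 without M38, and the same library set the MHC class II genes Cd74 (4214, 797 and 574 CPM against 594, 689.8 and 943 CPM) and H2-Aa (3365, 854 and 552 CPM against 568, 687 and 990.2 CPM). The neutrophil genes S100a8 and S100a9 were highest in M40 and M900, with S100a9 at 16.3, 18.9 and 182 CPM and 8.93, 17.8 and 96.1 CPM. Red cell genes were lower in sum in every Vegfc-deficient library, at 1066, 1375 and 804 CPM in the controls and 654, 325 and 309 CPM in the Vegfc-deficient hearts, and Hbb-bs, a beta globin, was at 762, 944 and 555 CPM and 421, 244 and 210.0 CPM. The plasma cell gene Jchain was at 61.1, 64.2 and 88.4 CPM in the controls and 13.5, 24.9 and 39.8 CPM in the Vegfc-deficient hearts, without overlap. Cd79a, a B cell gene named after its values were seen, was higher without overlap. Members whose groups were apart made up 37.5% of the 8 B and plasma cell genes, against 12.1% of all genes. The part of these cell types in the other differences was not tested.

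The difference between genotypes was also read in naive hearts, where the ribosomal protein genes pointed the other way. Of the 85 genes, 76 were higher in naive Vegfc-deficient than in naive control hearts, with a median log2 fold change of 0.26, and the median of the interaction, the difference in MI hearts minus that in naive hearts, was -0.77. In 47 of the 85 the interaction had an unadjusted p under 0.05, against 8.3% of all genes, and in 0 an adjusted p under 0.05 (edgeR quasi-likelihood, Benjamini-Hochberg). Mitochondrial ribosomal genes had medians of 0.18 in naive hearts and -0.38 for the interaction, and integrins and laminins -0.096 and 0.28. Respiratory chain genes, which were also short with a median transcript length of 1003 bases, had medians of 0.17 and -0.29. The naive and interaction medians of this paragraph are given without removal of the length trend, and the part of transcript length in them was not tested. Collagens had a median of 0.079 in naive hearts and 0.10 for the interaction. One naive library labelled Vegfc-deficient, M149, had Lyz2 at 4565 CPM, above both naive controls (2282 and 2121 CPM), and without it the interaction median of the ribosomal list was -0.81. Without M149 collagens had a median of 0.20 in naive hearts and -0.037 for the interaction, the sign of which thus turned, and for integrins and laminins the values were -0.058 and 0.19. All 6 MI libraries expressed Xist, the RNA of the inactive X chromosome of females, at 188 to 403 CPM and the 5 naive libraries at 0.624 to 11.8 CPM, so sex and MI cannot be told apart in the interaction.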

How the data were processed

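Stranded mRNA libraries of mouse left ventricle were sequenced, 1 per mouse. As deposited, the values are unnormalised read counts of 25006 Ensembl genes for each of the 11 libraries. The submitters' processing notes list cutadapt 1.13, STAR, HTSeq 0.6.1p1, DESeq2 1.14.1 and mm10, and the strand setting of the counting was not given in the sources used here. Of the gene identifiers, 24942 were found in GENCODE M21 (GRCm38), which gave symbols, positions and the length of each gene's longest transcript. Counts were fitted with edgeR 4.0.16 (R 4.3.3), with TMM scaling, filterByExpr by group, a mean per group over all 11 libraries and its quasi-likelihood F test, the p-values adjusted after Benjamini and Hochberg across 14779 genes. The standard error was the log2 fold change divided by the square root of F. Groups came from the title and genotype labels. Alternatives were DESeq2 1.42.0, limma 3.58.1 (voom with quality weights), other scalings and filters, length and GC trends removed, the 6 MI libraries alone or with the sarcomere level as covariate, and each library left out. The code was tested on simulated data.

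The members and the 46 gene lists were chosen with earlier results of these data known. Genes are named as the members of the VEGF list, in the lists of tissue function the 3 of smallest p (in lists of other cells the 2 most abundant), 14 textbook genes, and the 10 of smallest p in each direction whose groups were apart, 161 in all. Not all of these are printed. No list was given a p-value. Depth sets a floor of 3 counts, 0.101 to 0.363 CPM over the 11 libraries.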

Additional observations from a re-analysis of the deposited data

Results flagged for a closer look

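The following genes had groups that were apart in MI hearts in one direction and in naive hearts in the other. Over all genes this was so for 417 of 14779 tested (2.82%), with only 2 naive control libraries. The naive side includes M149, whose Lyz2 lay above both naive controls. As given above, sex and MI cannot be told apart in the interaction. For none of the genes below did edgeR's interaction test pass after Benjamini-Hochberg adjustment (smallest adjusted p = 0.383), and apart from that test the difference was not tested. Many of these genes were named for a small p in MI hearts, so their MI values are a description.

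Among higher genes in MI Vegfc-deficient hearts, the interaction log2 fold change was 1.71 for Igfbp5 (1.09 in MI and -0.63 in naive hearts), 2.02 for Zfhx4, 1.25 for Adra1a, 1.197 for Lamc1, 1.09 for S1pr3, 1.06 for Prpf8 and 1.005 for Col6a1. It was 0.98 for Gata4, 0.94 for Gstm2, 0.86 for Ints4, 0.84 for Pcolce, 0.78 for Tead1, 0.73 for Fto and 0.50 for Acvr1.

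Among lower genes it was -3.91 for Jchain, -1.80 for Ifi27l2a, -1.57 for Rps14, -1.35 for Gm11478, -1.25 for Rpl41, -1.06 for Rpl37rt and -1.03 for Gfer. For Mrpl20 it was -0.78 and for Tmem128 -0.67.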

How the results depend on the processing

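The count of 0 genes at an adjusted p under 0.05 between the MI groups, and of 0 for the interaction, stayed 0 in edgeR with DESeq2 size factors, scaling without ribosomal and globin genes, other filters, the length or GC trend removed and a threshold of 0.01, and in limma-voom. The DESeq2 Wald test called 51 and 55 genes. Leaving out each library gave 0 to 1 genes for the MI groups (1 without M006) and 0 to 1 for the interaction (1 without M38, M40 or M149). Genes at an unadjusted p under 0.05 for the interaction ran from 561 without naive control M44 to 1734 without M149. The cause was not tested.

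The ranges of the log2 fold changes that changed sign when a library was left out were -0.43 to 0.11 for Vegfc, -0.32 to 0.25 for Vegfb, -0.47 to 0.077 for Vegfd, -0.028 to 0.36 for Pgf, -0.067 to 0.76 for Kdr, -0.010 to 0.77 for Flt4, -2.40 to 1.223 for S100a9, -2.77 to 1.139 for S100a8 and -1.75 to 0.14 for Cd74. They were -1.50 to 0.12 for H2-Aa, -0.12 to 1.18 for Atp2a2, -0.12 to 0.15 for Postn, -0.25 to 0.53 for Acta2, -0.45 to 0.42 for Lyve1, -0.070 to 1.24 for Ppargc1a, -0.11 to 1.34 for Cpt1b, -0.42 to 1.36 for Ppara and -0.0097 to 0.55 for Fn1. Other settings that turned a sign gave 0.17 for Vegfb, 0.032 for Cox6a1, 0.030 for Gamt and -0.063 for Postn with the length trend removed, 0.089 for Vegfb with the GC trend removed, -0.025 for Kdr, 0.43 for S100a9, 0.22 for S100a8, -0.020 for Cpt1b and -0.0048 for Ppara with the sarcomere covariate. Of 161 genes chosen by the rule, 132 kept their sign in every setting. Of the 46 list medians, 22 kept their sign and 24 did not, and the cause was not tested. Depth limits genes near the floor, such as Ppara at 0.367 CPM in M40, where the floor was 0.11 CPM. Adamts3 came near it only in naive hearts, as at 0.588 CPM in M149, where the floor was 0.294 CPM. No paired analysis was possible because the labels carry mouse numbers, none of which is shared between groups.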

Other observations

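Gene lists not described above held few genes whose groups were apart. Proteoglycan and elastic fibre genes, which include the small leucine-rich proteoglycans of the scar, were higher for 15 of 26 genes with a median log2 fold change of 0.10 and no gene apart. Fbln1, a fibulin of elastic fibres, was at 320.0, 453 and 348 CPM in MI control hearts and 908, 387 and 429 CPM in MI Vegfc-deficient hearts, and its height rested on M35. Chaperone and endoplasmic reticulum stress genes had a median of 0.11 over 30 genes, hypoxia and iron genes one of 0.10 over 19 and cell cycle genes one of -0.11 over 30. The 23 antioxidant genes had a median of 0.089. Fth1, the ferritin heavy chain, was at 4146, 3402 and 4487 CPM against 2005, 2963 and 3444 CPM, with M35 far below the other 5 libraries.

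Markers of cells outside the myocardium were low or mixed. Epicardial and mesothelial genes summed to 138, 126 and 333 CPM in MI control hearts and 259, 123 and 138 CPM in MI Vegfc-deficient hearts, highest in M40 and M35. For adipocyte genes the median log2 fold change was -0.36 over 6 tested genes, and the adipocyte genes Plin1, Lep and Ucp1 were below the filter. Nerve and Schwann cell genes had a median of -0.19 over 7 genes. Skeletal muscle genes had one of -0.31 over 6, with the groups apart for Tnni2 and Mylpf (lower, 33.3% of the list, against 6.12% of all genes). Lung and thymus genes summed to 0.304, 0.377 and 0.404 CPM and 0.588, 0.456 and 0.671 CPM. Neutrophil markers had a median of -0.44 over 11 genes (from -2.58 without M900 to 1.11 without M40), MHC class II and dendritic cell genes one of -1.09 over 13 (-0.0073 without M38), B and plasma cell genes one of 0.53 over 8 (although their summed CPM was lower, at 95.8, 91.2 and 119 in the controls and 53.1, 55.95 and 78.3 in the Vegfc-deficient hearts) and red cell genes one of -1.37 over 5. The 7 genes of creatine synthesis and creatine kinases had a median of -0.19, the 14 cardiac transcription factors one of 0.19, the 19 adrenergic and renin-angiotensin genes one of 0.26 and the 25 genes of endothelin, nitric oxide and sphingosine phosphate signaling one of 0.0087. Tnni2, Mylpf, Plin1, Lep and Ucp1 were named after their values were seen.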
